A study of Mus musculus with 26 samples.

Results

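The clustered protocadherin genes were read in 16 peak lists of C2C12 cells, mouse myoblasts in permanent culture whose fusion into myotubes is set off by lowering the serum. Members were chosen by position alone, as every peak that touched chromosome 18 from 37050000 to 38010000 (mouse build mm9), a window of 960 kb that spans the Pcdha, Pcdhb and Pcdhg clusters. This gave 227 of 762764 peaks in all lists: 54 of SMC3, 140 of ATAC and 33 ChIRP summits. SMC3, which forms part of the ring of cohesin, was mapped by ChIP-seq in myoblasts, in myotubes, and in myotubes transfected with siDRR, a small interfering RNA against the DRR enhancer RNA. ATAC-seq, in which a transposase marks open chromatin, was done in myotubes transfected with a control, siDRR or siSmc3. ChIRP-seq, in which biotinylated probes retrieve an RNA with the chromatin it touches, was done for DRR in myotubes with 2 probe pools. Each of these 8 groups had n = 2 libraries of the same cell line. Cells grew in 20% serum and were differentiated in 2% horse serum with insulin, transferrin and selenium. The labels name no transfection for the SMC3 libraries of myoblasts and of plain myotubes. They also do not say that replicates were separate cultures, so the spread between replicates may be technical.

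Clustered protocadherins are cell-surface adhesion proteins, best known from neurons, where each cell uses its own combination of isoforms to tell its own branches from those of other cells. In the alpha and gamma clusters a row of variable first exons, each with its own promoter, is joined to constant exons shared by the whole cluster, while beta genes are single exons. CTCF and cohesin occupy many of these promoters and the distant enhancers of the clusters, and cohesin-dependent looping between them takes part in promoter choice. In the RefSeq table of assembly GRCm38.p6 the clusters hold 14 Pcdha, 22 Pcdhb and 22 Pcdhg genes in this order, 57 of the 58 protein-coding. Slc25a2, a mitochondrial carrier gene, and Taf7, which encodes a subunit of the general transcription factor TFIID, lie between Pcdhb22 and Pcdhga1, and Diaph1, encoding a formin that builds actin filaments, follows Pcdhgc5. That table is of another build than the peak lists, so no peak was assigned to a gene. Places are given instead by coordinate and by distance: "site 871" is the region whose left end lies 871 kb from the left edge of the window, and the clusters run from left to right.

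Each list held peaks of 1 library with a score from the authors' peak caller. Peaks were placed by score within their own list, and this place is given as a rank percentile, with 100 for the best peak and 50 for the middle of the list. Lists differed in length, from 8384 to 33154 peaks for SMC3, 58137 to 103055 for ATAC and 3765 to 68233 for ChIRP, and no read counts were given, so the depth is unknown. Percentiles from lists of different length are set side by side as descriptions and show no change of binding. Peaks of the 6 libraries of an assay were merged into regions wherever they overlapped by at least 1 bp. A lost region is one with a peak in each library of the starting group and in no library of the other, and a gained region is the reverse. Markers of the muscle line were not checked, because the lists carry no gene names.

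SMC3 peaks formed 22 regions, and 1 of them stood above all others. Site 871 (37920655 to 37922087) was called in all 6 lists. Its rank percentiles were 98.5 and 99.7 in myoblasts, 78.8 and 98.1 in myotubes, and 85.1 and 99.2 with siDRR. Both myotube values lay below both myoblast values, while myotubes and siDRR overlapped. In the second myoblast library it was number 106 of 33154 peaks, and in the first myotube library number 3187 of 15056. The lowest 2 of these 6 percentiles came from the first replicates of myotubes and of siDRR. Those are also the shortest SMC3 lists. In lists cut to the same length of 8384 peaks the site was still called in all 6, at 62.0 to 98.7.

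The other SMC3 sites were weaker and were called in fewer libraries. Of the 22 regions 9 were called in 1 library alone (40.9%, against 29.5% of all 43783 SMC3 regions of the genome), and 1 in all 6 (4.55%, against 16.1%). The 9 single-library regions stood at percentiles of 1.39 to 17.2. Over the 6 libraries, with 0 where a region was not called, the median of the mean percentile was 6.93 in the window and 13.8 for all regions. The median percentile of the window's own peaks lay below 50 in 5 of the 6 lists, at 12.8 to 35.1, and was 67.2 in the list of the first siDRR library, which held 2 peaks there. SMC3 peak density was above that of the whole genome in 3 lists and below it in the other 3. None of these differences from the genome was tested.

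**Figure D1:**
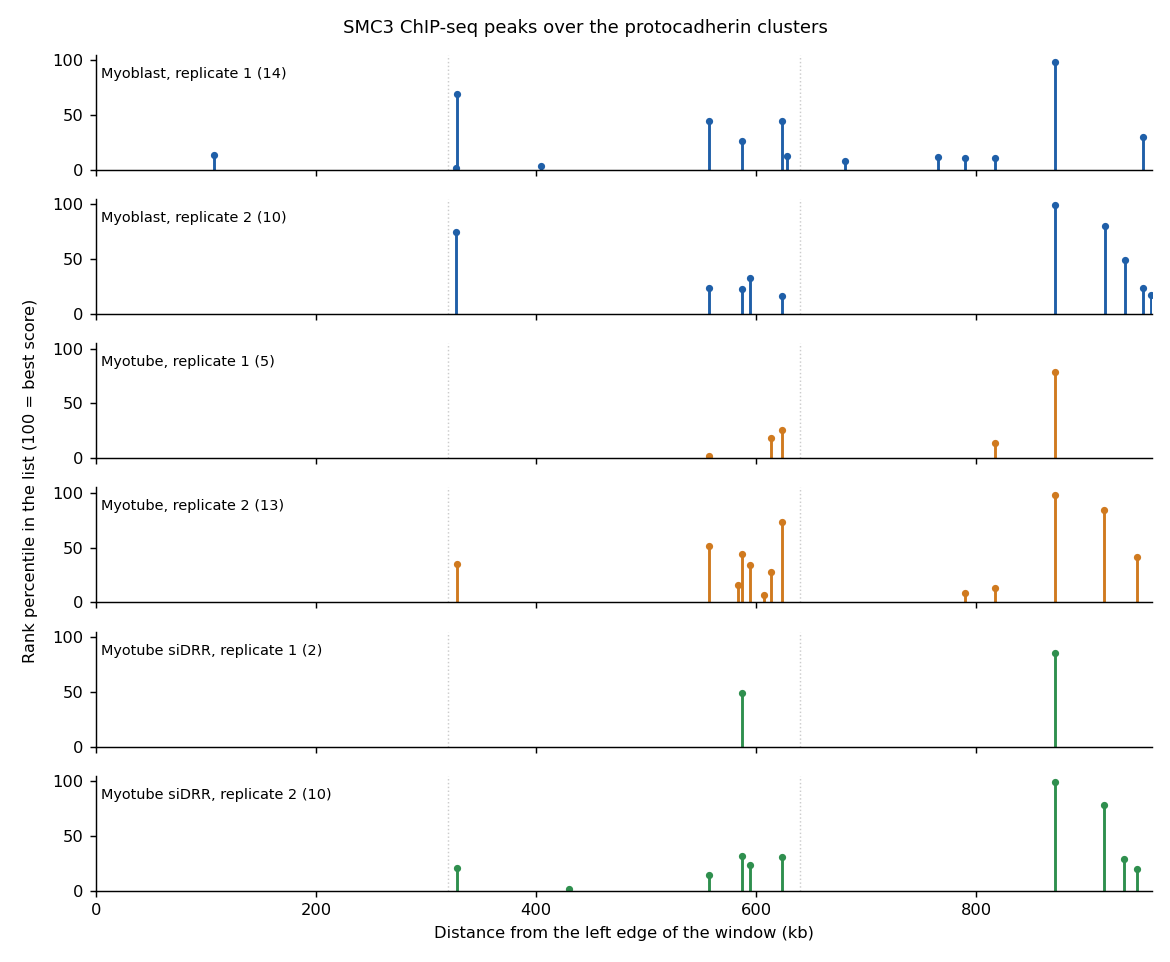
SMC3 ChIP-seq peaks of 6 libraries along the window, as distance from its left edge in kb against rank percentile in the list; each stem is 1 peak, dotted lines part the window into stretches of 320 kb, and the number of peaks is in brackets. The peak at 871 kb is the highest in every library, and the left 320 kb holds 1 peak in all.

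SMC3 was sparse in the left part of the window and gathered in a run in the middle. The first 320 kb held 1 region, site 107, called in the first myoblast library at a percentile of 13.1. The middle 320 kb held 11 regions and the last 320 kb held 10. The longest stretch without an SMC3 region ran from 37157677 to 37376692, which is 219 kb. In the middle part, 8 regions lay within 71.7 kb, from site 557 to site 628. The median gap between neighbouring regions over the window was 23.8 kb.

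Within this run, sites 557, 587 and 623 were each called in 5 libraries. Site 557 (37606723 to 37607796) stood at 44.6 and 23.9 in myoblasts, at 2.14 and 51.8 in myotubes, and at 14.8 in the second siDRR library. Site 587 (37636939 to 37637968) stood at 26.0 and 23.1 in myoblasts, at 43.8 in the second myotube library, and at 49.3 and 32.2 with siDRR. Site 623 (37672686 to 37673886) stood at 44.5 and 16.6 in myoblasts, at 25.8 and 73.0 in myotubes, and at 31.0 in the second siDRR library. Groups overlapped at sites 557 and 623, while at site 587 both myoblast values lay below the other 3. In lists of equal length site 587 was called in the first siDRR library alone. Each site was missed by a first replicate: sites 557 and 623 by that of siDRR and site 587 by that of myotubes. Site 594 (37644066 to 37645076) was called in the 3 second replicates alone, at 32.7, 34.6 and 23.8.

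Site 327 (37376693 to 37378635) lay alone to the left of this run. It stood at 68.8 and 75.2 in the myoblast lists, at 35.1 in the second myotube library and at 20.6 in the second siDRR library, and the first replicates of the latter groups had no peak there. Both myoblast percentiles were above all others at this site. When only the better-scoring 50% of each list was kept, site 327 was called in both myoblast libraries and in no myotube library. In lists cut to 8384 peaks it was called in the second myoblast library alone, at 2.04, and the myoblast lists are the longest of SMC3.

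**Figure D2:**
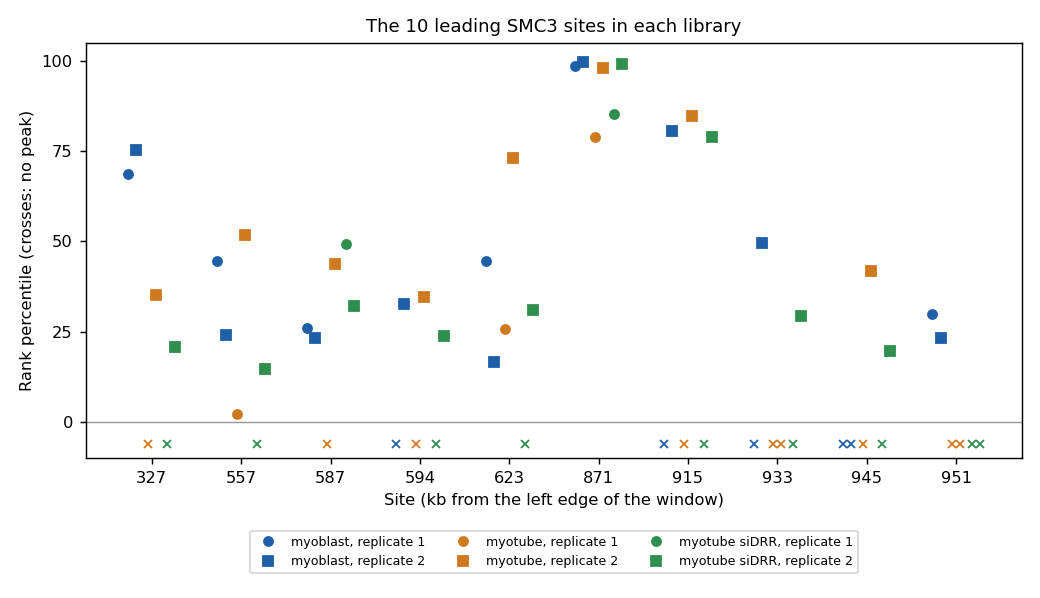
Rank percentiles of the 10 SMC3 sites with the highest mean percentile over 6 libraries; circles are first and squares second replicates, colours are myoblasts, myotubes and siDRR myotubes, and crosses under the line mark libraries with no peak. Site 871 is called in all 6 libraries, while sites 594, 915, 933 and 945 carry squares alone.

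The right end of the window held wide SMC3 regions that were nearly all from second replicates. Site 915 (37965132 to 37968954, 3823 bp) was called in the second library of myoblasts, myotubes and siDRR, at 80.4, 84.8 and 78.8, and in no first replicate. Site 933 (37982874 to 37986680, 3807 bp) was called in the second libraries of myoblasts (49.6) and siDRR (29.5). Site 945 (37994534 to 37996870) was called in the second libraries of myotubes (41.9) and siDRR (19.5). Site 957 (38006764 to 38010899, 4136 bp), which runs over the right edge, was called in the second myoblast library alone, at 17.2. Over the window 8 of 22 regions were called in second replicates only (36.4%, against 26.9% of the genome) and 5 in first replicates only (22.7%, against 11%). Regions called in all 3 second and no first replicate were 2 of 22 (9.09%, against 2.54%). All 5 regions of first replicates only were calls of the first myoblast library alone, at percentiles of 3.26 to 13.1. None of these shares was tested. List length moves with those of the second replicates, since the second list was the longer in each SMC3 group. With every list cut to 8384 peaks, site 915 was still called in the second replicates alone. It then stood at 22.7 in myoblasts, 51.4 in myotubes and 41.4 with siDRR. Sites 933, 945 and 957 were called in none of the cut lists. Just outside the right edge, 1118 bp away, lay a region called in all 6 libraries at 97.0 to 99.97 (38011118 to 38012791), which is not a member.

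Differentiation left few clear changes of SMC3 calls in the window. The lists held 14 and 10 SMC3 peaks there in myoblasts and 5 and 13 in myotubes, so the groups overlapped. The means were 12 ± 2.83 and 9 ± 5.66 (SD, n = 2 each). A two-sided exact permutation test gave p = 0.667, where this design allows no p below 0.333. Per 10000 peaks of a list the direction turned, with 3.77 ± 1.07 in myoblasts and 4.09 ± 1.09 in myotubes (SD, n = 2 each). Of 6 regions called in both myoblast libraries, 3 were also called in both myotube libraries (50%, against 51.6% over the genome): sites 557, 623 and 871.

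One region was lost and 1 was gained on differentiation, of 22 (4.55% each). Over the genome 12.5% of SMC3 regions were lost and 0.767% gained by the same rule. The lost region was site 951 (38000582 to 38001665), at 29.8 and 23.3 in the myoblast lists; the nearest myotube peak was 3890 bp away in the second library and 9494 bp away in the first. The gained region was site 613 (37663343 to 37664327), at 18.2 and 27.8 in the myotube lists, with scores of 65.04 and 85.42 where the lists begin at 50. Neither myoblast library had a peak within 8378 bp of site 613. Both calls were of low rank and neither was made in lists of equal length.

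From myotubes to siDRR, 2 SMC3 regions of the window counted as lost. Over the genome 0.0891% of regions were gained and 2.04% lost, against 0 and 2 of 22 (9.09%) in the window. With gains so rare over the genome, 0 of 22 does not set the window apart. The lists held 5 and 13 peaks in myotubes and 2 and 10 with siDRR, and the groups overlapped. Their means were 9 ± 5.66 and 6 ± 5.66 (SD, n = 2 each; p = 0.667, two-sided exact permutation test). Of the 5 regions called in both myotube libraries 1 was called in both siDRR libraries, site 871 (20.0%, against 51.5% over the genome).

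One of the lost regions was site 613, which both myotube libraries called and none of the 4 myoblast and siDRR libraries did. The nearest siDRR peaks were 8402 and 25375 bp away. The other was site 816 (37866227 to 37867142), at 13.4 and 13.2 in the myotube lists and at 10.6 in the first myoblast list, with no siDRR peak within 53517 bp. Both stood in the lower part of their lists, and neither counted as lost when lists were cut to equal length or to the better-scoring 50%. A call missing from the siDRR lists and a shorter siDRR list cannot be told apart at these ranks.

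Accessible chromatin gathered at the right end of the window. ATAC peaks formed 68 regions, of which 22 lay in the first, 16 in the middle and 30 in the last 320 kb. Of the 8 regions called in all 6 ATAC libraries, 7 lay in the last 320 kb, 5 of them in the final 44.7 kb. The strongest was site 915 (37965336 to 37968572, 3237 bp). It stood at 93.9 and 94.2 in control, at 90.3 and 93.9 with siDRR, and at 94.5 and 95.9 with siSmc3. Control and siDRR overlapped, and both siSmc3 values lay just above both control values. In lists cut to 58137 peaks siSmc3, at 92.4 and 92.8, lay inside the control range of 90.0 to 93.9, and both siDRR values, 88.3 and 89.7, lay below it.

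The other 4 regions of the final stretch were called in every library too. Site 957 (38007084 to 38011156) stood at 95.2 and 91.5 in control, 91.4 and 87.7 with siDRR, and 94.3 and 78.2 with siSmc3, with both siDRR values just below both control values. Site 945 (37994644 to 37996863) stood at 85.1 and 97.2 in control, 89.2 and 90.3 with siDRR, and 60.6 and 89.0 with siSmc3. Site 952 (38001523 to 38003287) stood at 88.7 and 87.9 in control, 76.3 and 83.6 with siDRR, and 72.1 and 83.6 with siSmc3. Both control values of site 952 were above the 4 knockdown values, whereas at site 945 the groups overlapped. Site 933 (37983175 to 37987256) stood at 71.1 and 72.5 in control, 74.7 and 63.9 with siDRR, and 86.6 and 75.6 with siSmc3, where both siSmc3 values were above all others. In lists cut to 58137 peaks the order at site 952 remained, at 88.7 and 79.3 in control and 61.2 to 72.2 in the knockdowns. At site 933 the order was gone, with 71.1 and 52.9 in control and 81.4 and 56.8 with siSmc3. At site 957 it was gone too, with 95.2 and 85.5 in control and 89.7 and 79.2 with siDRR. At site 945 both siSmc3 values, 45.1 and 80.5, then lay below both control values, 85.1 and 95.2. None of these orders was tested.

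**Figure D3:**
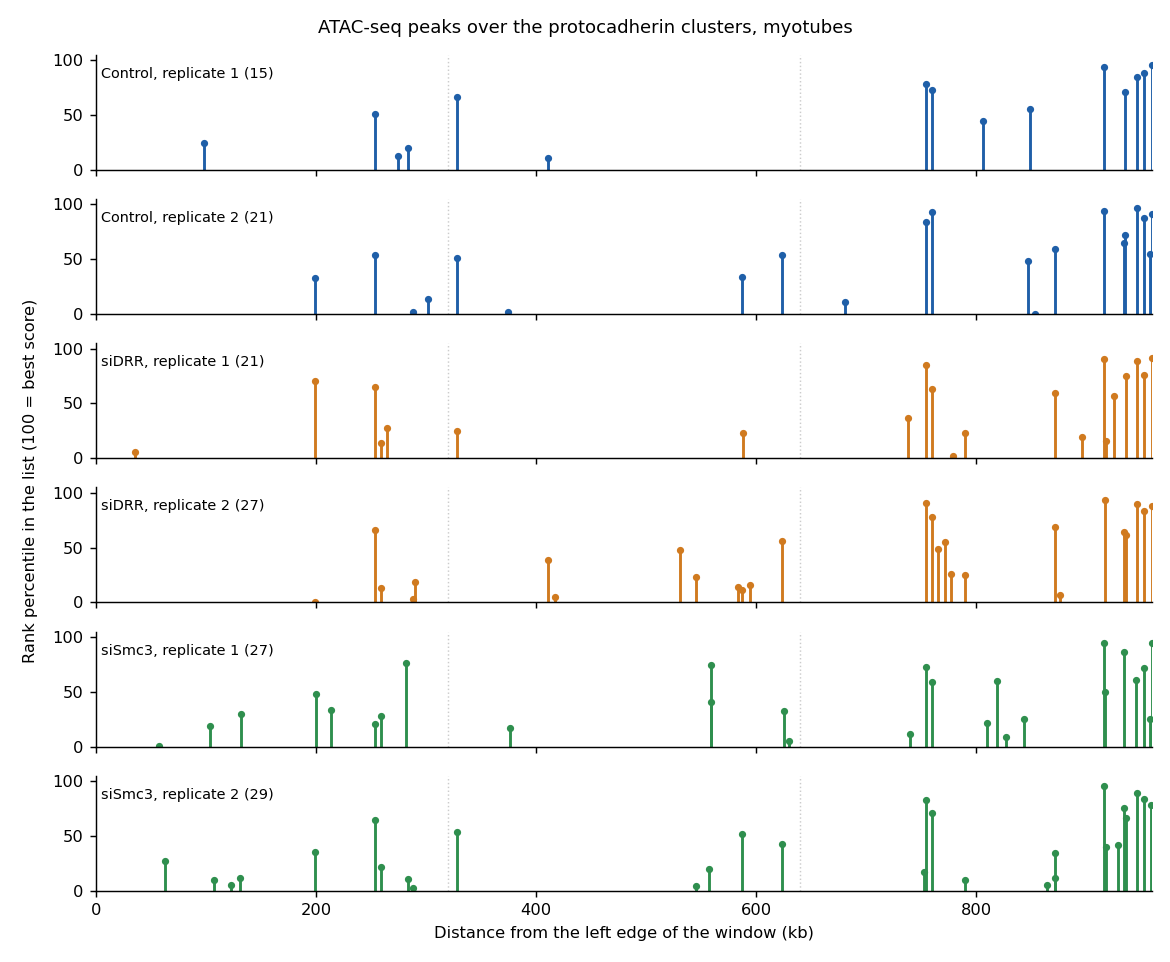
ATAC-seq peaks of 6 myotube libraries along the window, as distance from its left edge in kb against rank percentile in the list; each stem is 1 peak, dotted lines part the window into stretches of 320 kb, and the number of peaks is in brackets. High stems recur in all 6 libraries near 753 and 759 kb and from 915 kb to the right edge.

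Sites 753 and 759 were the other strong pair. Site 753 (37803413 to 37804271) stood at 78.0 and 83.6 in control, 85.5 and 90.6 with siDRR, and 73.0 and 83.1 with siSmc3. Site 759 (37808836 to 37810008) stood at 72.6 and 92.7 in control, 63.1 and 78.1 with siDRR, and 59.3 and 71.1 with siSmc3. At site 753 both siDRR values lay above both control values, and siSmc3 overlapped control. At site 759 siDRR overlapped control, and both siSmc3 values lay below both control values. In lists cut to 58137 peaks siDRR at site 753 was still above control, at 82.6 and 84.1 against 78.0 and 71.9, and siSmc3, at 62.5 and 70.0, was below it. At site 759 both knockdowns then lay below the control values of 72.6 and 87.6, siDRR at 55.7 and 62.8 and siSmc3 at 43.4 and 48.8. No SMC3 region of any library overlapped either site. The eighth region of all 6 libraries, site 253 (37302764 to 37304126), was the only one in the first 320 kb, at 51.1 and 53.4 in control, 65.3 and 65.9 with siDRR, and 20.5 and 64.5 with siSmc3. Both siDRR values lay above both control values, but in lists of equal length they overlapped, at 58.3 and 42.1 against 51.1 and 20.2.

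Most other ATAC regions were called once. Of the 68, 50 were called in 1 library (73.5%, against 60.1% of 231567 regions of the genome), at percentiles of 0.237 to 76.4 with a median of 19.4. The first siSmc3 library held 16 of these 50, and each of the other 5 libraries held 5 to 9. In all 6 lists ATAC peaks were less dense in the window (15.6 to 30.2 per Mb) than over the genome (22.6 to 40.1 per Mb).

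**Figure D4:**
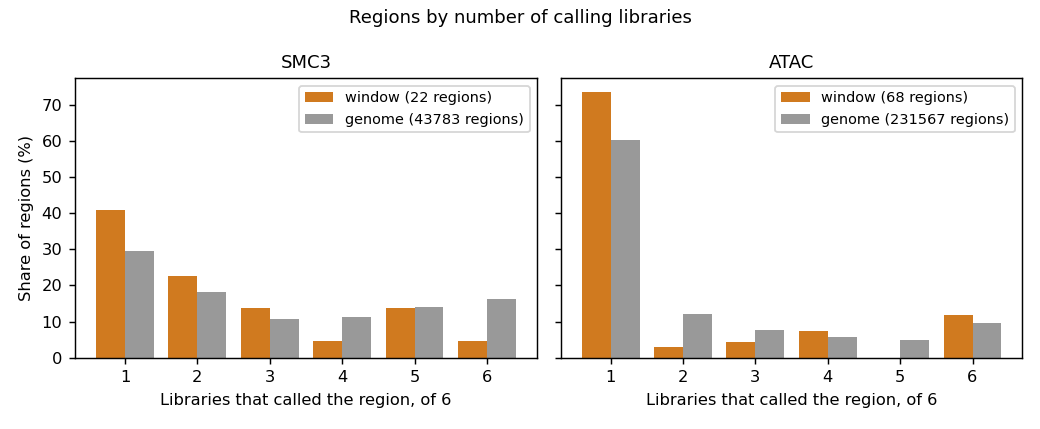
Share of merged regions, in percent, by the number of the 6 libraries of the assay that called them, for the window and for the whole genome; SMC3 left, ATAC right. Regions of 1 library make up 40.9% of SMC3 and 73.5% of ATAC regions in the window, against 29.5% and 60.1% of the genome.

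Under siDRR no ATAC region of the window was lost and 2 were gained, of 68 (2.94%). Over the genome 0.973% were lost and 1.06% gained. The control libraries had 9 regions in common, and 8 of them were also found in each siDRR library (88.9%, against 72.5% over the genome). Those 8 were the regions found in all 6 libraries. The gained regions were both weak. Site 259 (37308756 to 37309335) stood at 13.9 and 12.8 in the siDRR lists, with scores of 32.36 and 33.77 where the lists begin at 30. The control peaks nearest to site 259 were 4800 and 5014 bp away. Site 790 (37839729 to 37840257) stood at 23.1 and 24.9, with scores of 34.38 and 39.36, and the nearest control peaks were 15123 and 29721 bp away. The second siSmc3 library called site 790 too, at 10.2.

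Under siSmc3 no ATAC region was lost and 1 was gained (1.47%), against 1.37% lost and 1.57% gained over the genome. Again 8 of 9 regions of both control libraries were called in both siSmc3 libraries (88.9%, against 66.5%). The gained region was site 259, at 27.5 and 21.6 in the siSmc3 lists. The siDRR and siSmc3 comparisons share their 2 control libraries. No ATAC region of the window counted as gained in lists of equal length or in the better-scoring 50%.

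Counts of ATAC peaks were higher with either knockdown. The lists held 15 and 21 peaks of the window in control, 21 and 27 with siDRR, and 27 and 29 with siSmc3, so siDRR met the control at 21 and siSmc3 did not overlap it. The means were 18 ± 4.24 in control, 24 ± 4.24 with siDRR (p = 0.667) and 28 ± 1.41 with siSmc3 (p = 0.333; SD, n = 2 each, two-sided exact permutation tests). The lists themselves were longer under siSmc3, and per 10000 peaks the means were 2.34 ± 0.333 in control, 2.87 ± 0.190 with siDRR and 3.08 ± 0.370 with siSmc3 (SD, n = 2 each). Among the better-scoring 50% of each list the siSmc3 mean was 1 peak below the control mean.

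The ninth region of both control libraries was site 328 (37377672 to 37378239), inside SMC3 site 327. It stood at 66.3 and 51.3 in control, at 24.8 in the first siDRR library and at 54.0 in the second siSmc3 library, and was missing from the second siDRR and the first siSmc3 library. With the better-scoring 50% of each list it counted as lost under siDRR, while in lists of equal length it was called in both control libraries and the first siDRR library.

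SMC3 and accessibility met at some of these places and parted at others. Of the 22 SMC3 regions 16 overlapped an ATAC region of any library (72.7%, against 77.4% over the genome). Both myotube libraries called 5 SMC3 regions of 22 (22.7%, against 31.6% over the genome). None of the 5 overlapped an ATAC region called in both control libraries (0%), against 26.4% over the genome, a difference that was not tested. In the window widened by 50 kb on each side 37.5% of 8 SMC3 regions did so. With 1 library a group the rule was looser, as 1 SMC3 and 1 ATAC library had to call. Under it, 46.2% of 13 SMC3 regions overlapped in the second replicates, and 0% of 5 in the first. The genome share of 26.4% holds for 2 libraries a group and cannot be set beside these 2 values.

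Site 871, the leading SMC3 site, was accessible in 4 of the 6 ATAC libraries. There the ATAC region (37920903 to 37921698) stood at 59.3 in the second control library, 59.1 and 69.0 with siDRR, and 34.1 in the second siSmc3 library, and it was missing from the first control and the first siSmc3 library. The opposite case was sites 753 and 759, called in every ATAC library, at percentiles of 59.3 to 92.7, without an SMC3 call. Of the 8 ATAC regions of all 6 libraries 5 overlapped an SMC3 region of any library (62.5%, against 57.8% over the genome), and all 5 lay in the final 44.7 kb.

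DRR ChIRP gave 33 summits in the window. Pool 1 had 0 in its first and 23 in its second library, and pool 2 had 6 and 4. In all 4 lists the density was below that of the genome, in the first library of pool 1 with 0 of its 3765 summits, in the second with 24.0 per Mb against 26.4. Summits lay more to the right: 6 in the first, 6 in the middle and 21 in the last 320 kb, with all 4 of the second pool 2 library in the last. The LacZ probe and input libraries were not analysed here, so no background stands beside these counts.

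**Figure D5:**
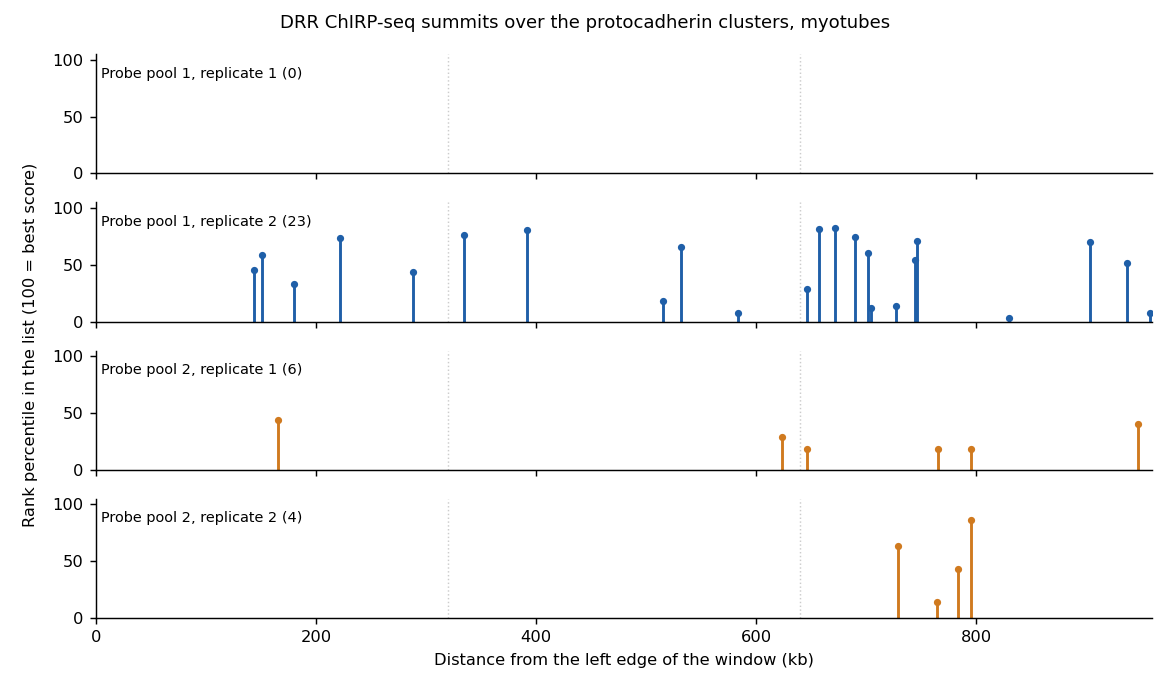
DRR ChIRP-seq summits of 4 myotube libraries along the window, as distance from its left edge in kb against rank percentile in the list; each stem is 1 summit, dotted lines part the window into stretches of 320 kb, and the number of summits is in brackets. The first library of pool 1 has none, and the second has 23 of the 33.

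With summits widened by 250 bp on each side, 0 of 31 ChIRP regions held a summit of each pool, against 1.18% over the genome. At so low a share, 0 of 31 does not set the window apart. Only the second library of pool 1 could match, since the first had no summit here. With summits widened by 500 bp, 1 region held a summit of each pool. The closest summits of the 2 pools were at 37695952 (pool 2) and 37696576 (pool 1), 624 bp apart, at percentiles of 17.8 and 29.1. Within pool 2 the replicates met at 2 places. One pair lay at 37814677 and 37814715, at 14.1 and 17.8, and the other at 37844858 and 37844884, at 86.5 in the second and 17.8 in the first library. The summit at 37844858 had the highest percentile of all 33, and it lay 4608 bp from the nearest SMC3 peak and 4601 bp from the nearest ATAC peak of any library.

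Few of the 33 summits lay at cohesin or open chromatin, though both shares were above those of the genome. Neither difference was tested. Within 250 bp of an SMC3 peak of a myotube library there were 3 of 33 (9.09%, against 2.87% over the genome), and within 250 bp of an ATAC peak of a control library 4 (12.1%, against 7.19%). The 3 near SMC3 were at site 583 (37633094, pool 1, percentile 7.20), site 623 (37673542, pool 2, 28.6) and site 945 (37996869, pool 2, 39.9). All stood below the 50th percentile and came from the second library of pool 1 and the first of pool 2. None remained among the better-scoring 50%. The 4 near control ATAC were the summit at site 623 and 3 of the second pool 1 library, at 37337790 (percentile 44.0), 37986493 (52.0) and 38008149 (7.20). The last 2 lay in ATAC sites 933 and 957. No summit lay within 250 bp of site 871, nor of sites 613 and 816, the SMC3 regions lost under siDRR.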

How the data were processed

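The authors deposited 1 peak list per library for 16 of 26 samples; the inputs and LacZ libraries were not analysed here. Each list gives positions and a peak score by the authors' peak caller, whose scale is not stated, so the deposited score was used only within a list. The build is mm9 and the peak callers named are MACS2 and MACS 1.4.2, after alignment with Bowtie2 2.2.4 or Bowtie 1.1.1, per the submitters' processing notes, which tie none to an assay. The sources used here do not give the peak-calling controls and thresholds or any shift of ATAC reads. SMC3 lists begin at a score of 50 and ATAC lists at 30.

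Starts were made 1-based, and unplaced contigs and the mitochondrial chromosome were left out. No pair of lists of an assay shared over 1.41% of the shorter list's positions. Peaks of 6 libraries were merged with Python 3.11.15, pandas 2.3.3 and SciPy 1.17.1; the steps were tested on simulated data. Regions with values per library were the 10 with the highest mean percentile in each assay, all lost or gained regions, and ChIRP summits within 250 bp of a summit of the other pool, an SMC3 peak or an ATAC peak; SMC3 sites 107 and 957, the closest summits of the 2 pools and the summit pairs within pool 2 fall outside that rule and were picked after their values were seen. Members, regions and alternatives were chosen with earlier results of these data known.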

Additional observations from a re-analysis of the deposited data

How the results depend on the processing

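Counts of regions in the window were small and moved with list length. With all lists of an assay cut to its shortest (8384 and 58137 peaks), SMC3 losses and gains on differentiation, SMC3 losses with siDRR and ATAC gains with siDRR and siSmc3 all fell to 0, and 1 SMC3 region was called in both myotube libraries. With the better-scoring 50% of each list, the SMC3 gain on differentiation, the SMC3 losses with siDRR and both ATAC gains were 0, ATAC losses with siDRR were 1, and 1 SMC3 region was called in both myotube libraries; the SMC3 loss on differentiation stayed at 1 but was site 327 instead of site 951. When a library had to cover 50% of a region, ATAC gains with siDRR were 1. With 50 kb added on each side, ATAC gains with siSmc3 were 2 and SMC3 regions of both myotube libraries 8, of which 37.5% overlapped control ATAC regions. Merging over the 4 libraries of a comparison changed no count of lost or gained regions.

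Leaving out the first or the second replicates left 1 library a group, with no test. A lost or gained region then needed only 1 call against 1 missing call, a looser rule. The window held 17 SMC3 and 41 ATAC regions without replicate 1, and 15 and 43 without replicate 2. The genome shares given above are not for this rule, so none stands beside these counts. SMC3 losses on differentiation then ranged from 3 to 10 and gains from 1 to 6, losses with siDRR from 4 to 5 and gains from 1 to 2. ATAC losses with siDRR were 6 in both cases and gains 11 to 13, and with siSmc3 losses were 5 to 7 and gains 12 to 18. SMC3 regions of myotubes were 5 to 13, and their overlap with control ATAC regions 0% to 46.2%. ChIRP summits near SMC3 were 1 in both cases, and those near ATAC 0 to 3. The difference in SMC3 peaks on differentiation was -9 without replicate 2 and 3 without replicate 1, a change of sign. The lost and gained counts follow the looser rule and cannot be compared with those of 2 libraries a group. Any other cause of these moves was not tested.

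That difference was 0.32 per 10000 peaks, also of opposite sign, and 0 with the better-scoring 50%. The ATAC differences were 0 (siDRR) and -1 (siSmc3) with the better-scoring 50%. With summits widened by 500 bp, 1 ChIRP region was found in both pools, and with the better-scoring 50% of ChIRP lists 0 summits lay near SMC3 and 1 near ATAC.

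In the replicate block analysis, which pairs libraries by number, the mean paired differences in peak counts were those of the unpaired analysis: -3 for SMC3 on differentiation (p = 1), -3 for SMC3 with siDRR, 6 for ATAC with siDRR and 10 for ATAC with siSmc3 (p = 0.5 each, two-sided exact sign-flip permutation test, which cannot go below 0.5 with 2 pairs). The labels do not say what a number shares. Differences between replicates, in percentile over all regions, correlated between groups at r = 0.12 to 0.30 across regions, which are not independent.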
